A study of Mus musculus with 8 samples.

Results

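Mouse 3134 mammary epithelial cells that made dominant-negative Chd4 were compared with parental 3134 cells, both after 48 hours without tetracycline. These are 2 of the study's 8 DNase-seq libraries, chosen by their labels. The DNCHD4 line carries a retroviral, tetracycline-controlled mouse Chd4 with a triple FLAG tag and an exchanged lysine, integrated into 3134 cells that hold the tetracycline transactivator. Without tetracycline the altered protein is made, on top of the cells' own Chd4, and with tetracycline it is repressed. The labels do not say whether the line is 1 clone, how much protein was made, or whether the parental library came from cells with the transactivator. All cells were plated in serum treated with charcoal and dextran. The same 2 lines kept for 48 hours with tetracycline served to show which differences were there without induction, and lines with dominant-negative Brg1 (DNBrg1) or Snf2h (DNSnf2h) gave 4 further libraries. Each group has 1 library, so the differences below come without replicate error and without p-values.

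Chd4 is an ATPase that slides nucleosomes and is the motor subunit of the NuRD complex, which also holds histone deacetylases. NuRD is best known for lowering accessibility and transcription at enhancers and promoters, although it also occupies active ones. A catalytically impaired copy can compete with the normal subunit for places in the complex. DNase I cuts DNA where nucleosomes leave it open, and regions with many cuts, called hotspots, mark accessible enhancers, promoters and other regulatory elements.

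The authors deposited 1 hotspot list per library on build mm9, with the highest tag density of each hotspot. Without tetracycline there were 78093 hotspots in DNCHD4 cells and 35071 in parental cells, and with tetracycline 48888 and 35083. A list reached down to a lowest density of 5.09 in DNCHD4 and 10.0 in parental cells without tetracycline, and to 8.05 and 13.0 with it. Within these 4 libraries a single tag was worth a density of 0.179 to 0.310, so the highest density of the median hotspot stood for 72 to 126 tags. The hotspots are numbered with gaps, 8361 to 11882 numbers in each of these lists, and what removed those hotspots is not known. A region missing from a list may thus lie under its threshold or have been removed, and is not shown to be closed. Every bound below, for a site in 1 list, assumes the former. Leaving out sites at which the other list's numbering has a gap, 1910 higher and 1787 lower sites were called. No gene annotation of build mm9 was used, so the sites are given by position only.

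Hotspots of both lists without tetracycline were merged where they overlapped, which gave 78981 sites. Of these, 33110 were listed in both libraries, 44675 in DNCHD4 cells only and 1196 in parental cells only. Much of that imbalance lay below the parental threshold. That threshold corresponds to a density of 13.1 on the DNCHD4 scale, and 34048 of the DNCHD4-only sites (76.2%) were under it. When both lists began at this common density, 74.1% of 41080 DNCHD4 hotspots overlapped a parental one (95% Wilson interval 73.7 to 74.5, counting error only), and 88.4% of 35071 parental hotspots overlapped a DNCHD4 one (88.1 to 88.8). With tetracycline and a common density of 13.3, the shares were 88.3% (88.0 to 88.7) of 35952 and 91.9% (91.6 to 92.2) of 35083. DNCHD4 cells without tetracycline thus held more hotspots that the parental list did not match, even above the common density.

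Where both libraries listed a site, deposited density was 1.31-fold higher in DNCHD4 cells at the median (log2 0.39), against a log2 of 0.04 with tetracycline. Between tetracycline states the median log2 ratio, without over with, was 0.03 within the DNCHD4 line and -0.40 within the parental line. The offset between the lines without tetracycline therefore moved with the parental library. The sources used here do not give what the authors scaled the libraries to, so a real shift of all sites and a shift of scale cannot be told apart. The median ratio was set to 1 before sites were called.

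After this centring, 2157 sites were at least 2-fold higher in DNCHD4 cells (2.73% of all sites) and 1812 at least 2-fold lower (2.29%), so 54.3% of the called sites were higher. With densities as deposited the counts were 6697 and 1200, and 84.8% were higher. Of the higher sites, 855 were listed in both libraries (2.58% of such sites) and 1302 in DNCHD4 cells only. Of the lower sites, 616 were listed in both (1.86%) and 1196 in parental cells only. A site in 1 list was compared with the threshold of the other list, its lowest density. Because the parental list starts so much higher, every parental-only site passes 2-fold by construction, at 2.58-fold or more, whereas a DNCHD4-only site needs a density of 26.3. Being listed in both also depends on the thresholds. When both lists began at the common density, 1912 sites were higher and 378 lower, and 83.5% of the called sites were higher.

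The 855 higher sites that both lists hold had a median density of 49.5 in DNCHD4 and 15.2 in parental cells without tetracycline. With tetracycline their medians were 23.6 in the 766 that DNCHD4 cells listed and 25.7 in the 644 that parental cells listed. The 616 lower sites had medians of 10.5 and 18.5 without tetracycline, and 522 of them were listed in DNCHD4 cells with tetracycline, at a median of 25.9. The higher sites were 2.28-fold apart at the median and 7.87-fold at most, and the lower sites 2.23-fold and 4.50-fold. The exact 95% binomial interval of the tag ratio left out 1 at all 855 and all 616. A 2-fold call on the same tags already implies this at these tag counts, so it adds no support. The interval lay wholly beyond 2-fold at 196 higher and 41 lower sites. Just inside the threshold, between 2-fold and 2.1-fold, lay 167 of the higher and 163 of the lower sites. Just outside it, between 1.9-fold and 2-fold, lay 264 and 239 sites that were not called.

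The hotspots themselves differed in width with the call. Higher sites had a median hotspot width of 767 bp in DNCHD4 and 559 bp in parental cells, and 96.7% were wider in DNCHD4 cells. Lower sites measured 495 bp and 615.5 bp, and 14.4% were wider in DNCHD4 cells. At the 31639 sites listed in both and not called, the widths were 721 bp and 653 bp, with 72.7% wider in DNCHD4 cells. How the ends of a hotspot were set is not known, so width may not be independent of density.

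The tetracycline-treated pair tells which of these differences were there without induction. Over its own 49177 sites, 209 were at least 2-fold higher in DNCHD4 cells (0.425%) and 312 lower (0.634%), and among sites listed in both libraries 0.407% and 0.345%. Of the 2157 higher sites, 18 were also at least 2-fold higher with tetracycline, 910 were listed in both libraries and under 2-fold apart, and 23 were at least 2-fold lower. A further 353 were listed in 1 library at a bound under 2-fold, and 853 were listed in neither. Of the 1812 lower sites, 20 were also lower with tetracycline, 795 were under 2-fold apart, 36 were at least 2-fold higher, 431 had a bound under 2-fold, and 530 were listed in neither. The libraries with tetracycline therefore gave a direct answer for 951 higher sites (44.1%) and 851 lower sites (47.0%). Among those, 933 higher (98.1%) and 831 lower sites (97.6%) lacked a 2-fold difference in the same direction. Nearly all sites lacked one, given the 0.407% and 0.345% above, so lacking it does not set the called sites apart. Having one was rare but more frequent among the called sites than those 2 shares. For the sites that no list with tetracycline holds, an equal density below both thresholds and an absence of cuts cannot be told apart.

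**Figure D1:**
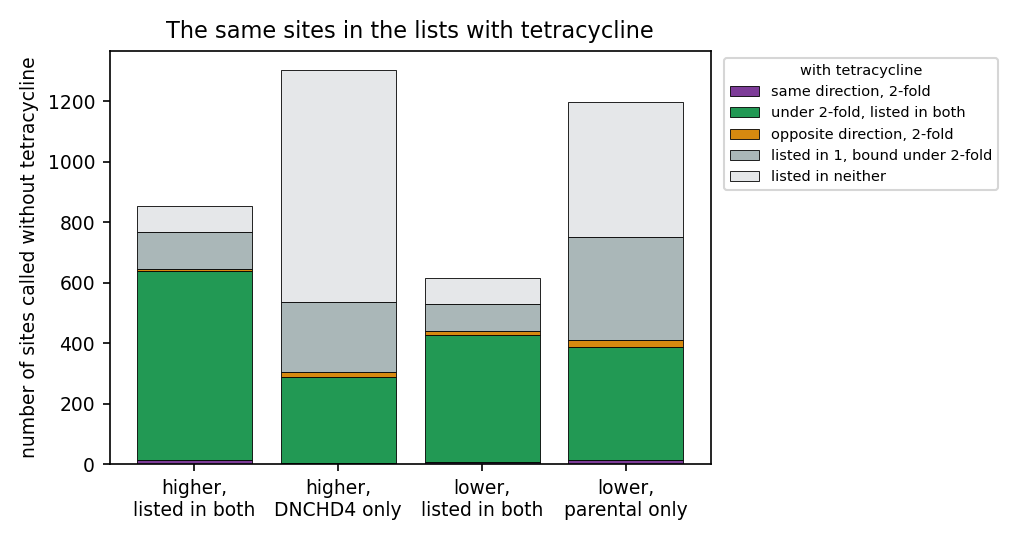
Bars count the sites called at 2-fold without tetracycline, split by direction and by whether 1 or both libraries listed them; colours give what the lists with tetracycline held at the same sites. The segment for the same direction is 18 of 2157 higher and 20 of 1812 lower sites, and 767 of the 1302 DNCHD4-only sites were in neither list with tetracycline.

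A long hotspot with tetracycline can join a site to a neighbour that the lists without tetracycline keep apart, and the site then takes the value of the stronger of them. This held for 40 of the higher and 77 of the lower sites, and for 25 of the 36 lower sites that turned to higher. Sites were therefore also merged over all 4 lists of both lines. There were then 2124 higher and 1751 lower sites, of which 13 and 17 had the same direction with tetracycline and 20 and 11 the opposite one. The values that follow, on sites listed in all 4 libraries, use this merging.

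In all, 28401 sites were listed in the 4 libraries. Their log2 ratio between the lines had an SD of 0.46 without and 0.36 with tetracycline, while the SD that counting alone gives was 0.18 and 0.17. Without tetracycline 623 were at least 2-fold higher in DNCHD4 cells (2.19%) and 425 lower (1.5%). With tetracycline 102 were higher (0.359%) and 82 lower (0.289%). The ratios in the 2 states share no library, and across sites they had a Pearson r of -0.06 and a Spearman rho of -0.09. Sites are not independent replicates, so these describe the libraries. With tetracycline, 7 of the 623 higher and 5 of the 425 lower sites kept their 2-fold difference. As shares of the called sites, these small counts are above the 0.359% and 0.289% of all 28401 sites with such a difference.

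With tetracycline the 623 higher sites had a median log2 ratio of -0.03 between the lines (quartiles -0.24 and 0.25), and 299 of them (48.0%) were above 0. The 425 lower sites had a median of 0.11 (quartiles -0.22 and 0.32), and 249 (58.6%) were above 0, against 50.8% of all 28401 sites. In the cultures with tetracycline the higher sites were thus spread evenly about equality, and the lower sites lay slightly on the DNCHD4 side.

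**Figure D2:**
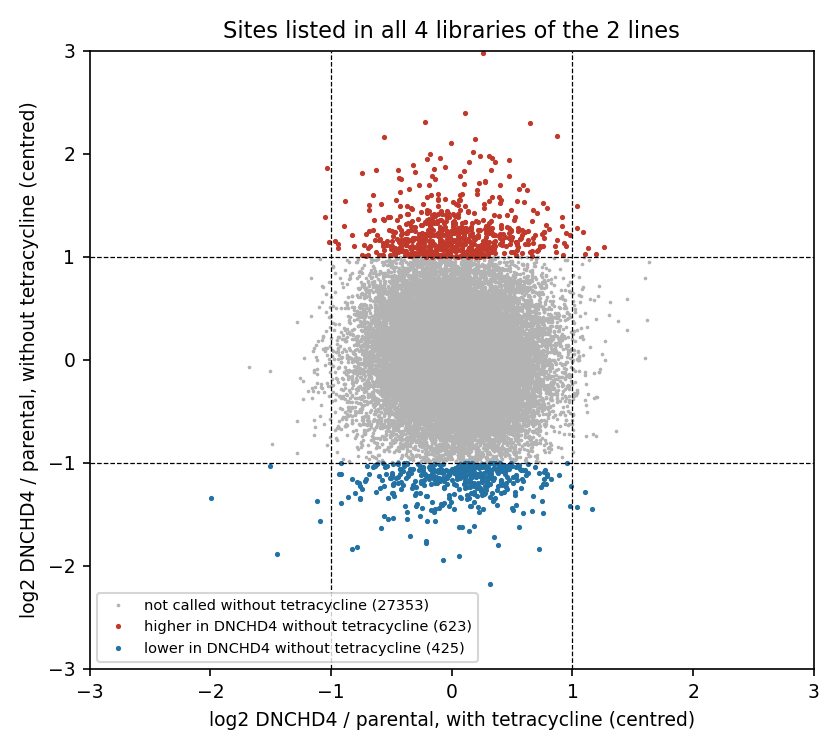
Each point is a site listed in all 4 libraries, with the centred log2 ratio of DNCHD4 to parental density with tetracycline on the x axis and without it on the y axis; dashed lines mark 2-fold. The 623 higher and 425 lower sites form bands centred near 0 on the x axis, and 7 and 5 of them lie past 2-fold in the same direction on both axes.

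The difference between the lines without tetracycline can be split into the difference with tetracycline and the change of each line between the states. At the 623 higher sites the DNCHD4 line had a median log2 of 0.97 without over with tetracycline and the parental line one of -0.21. At the 425 lower sites the medians were -1.15 and 0.13. A change of at least 2-fold in the matching direction was seen in DNCHD4 cells at 297 higher sites (5.37% of the sites of that line were 2-fold higher without tetracycline) and 262 lower sites (8.5% were lower). In parental cells the opposing change reached 2-fold at 31 higher sites (1.83% of its sites were lower without tetracycline) and 19 lower sites (2.08% were higher). At 296 higher and 145 lower sites neither line changed 2-fold. The DNCHD4 line moved more than the parental line at 480 of the higher (77.0%) and 352 of the lower sites (82.8%). Each of these changes shares a library with the choice of the sites, so they are a description. Over all called sites, bounds included, 1498 of the 2157 higher sites were at least 2-fold higher and 931 of the 1812 lower sites at least 2-fold lower in DNCHD4 cells without than with tetracycline. The same held for 7.21% and 10.2% of all 84480 sites of that line. A higher site has a DNCHD4 density of at least 26.3, and the DNCHD4 list with tetracycline starts at 8.05. Each higher site missing from that list therefore passes 2-fold by construction, and the list held 1278 of the 2157. The 7.21% is not a like background, since the median DNCHD4 hotspot without tetracycline was at only 14.1.

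**Figure D3:**
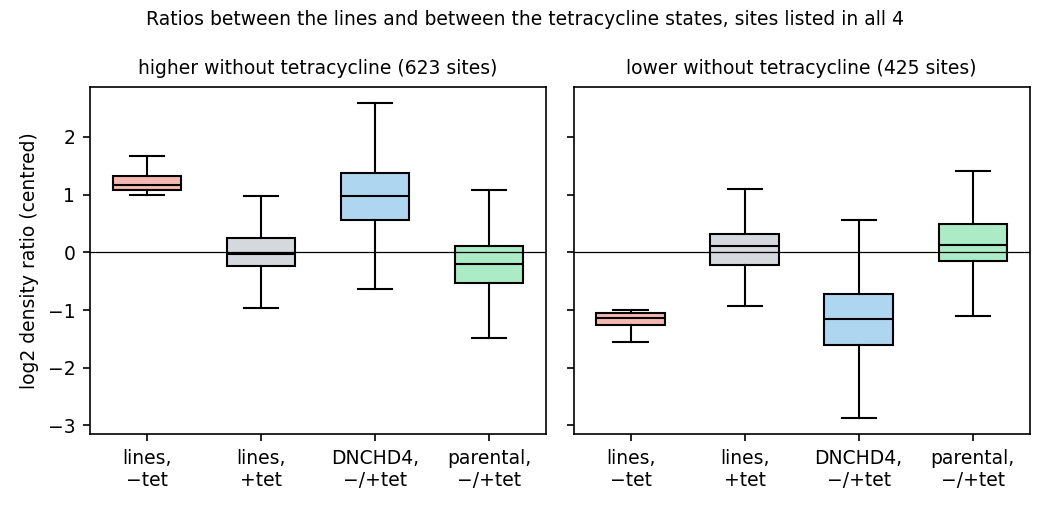
Boxes show the median and quartiles, with whiskers to the last site within 1.5 box lengths, of 4 centred log2 density ratios: DNCHD4 over parental in each tetracycline state, and without over with tetracycline in each line. In both panels the DNCHD4 change (medians 0.97 and -1.15) is near the size of the difference without tetracycline, and the parental change lies closer to 0.

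Differences were concentrated at sites that were weak with tetracycline. Ranked by mean log2 density with tetracycline, the lowest quintile of the 28401 sites (density 10.4 to 22.1) held 238 higher (4.19%) and 157 lower sites (2.76%). The middle quintile (33.7 to 54.0) held 138 (2.43%) and 79 (1.39%). The top quintile (99.2 to 1973) held 5 (0.0880%) and 22 (0.387%), and there lower sites outnumbered higher ones. The median log2 ratio without tetracycline was itself -0.09 in the top quintile, against 0.01 in the lowest and 0.07 in the middle one. The single centring thus leaves an offset by level, and its part in these counts was not tested. The SD of the log2 ratio without tetracycline went from 0.55 to 0.31 between the lowest and the top quintile, with a counting SD of 0.24 and 0.09. With tetracycline it went from 0.40 to 0.26. The spread without tetracycline was the larger of both in every quintile, at nearly the same counting error.

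**Figure D4:**
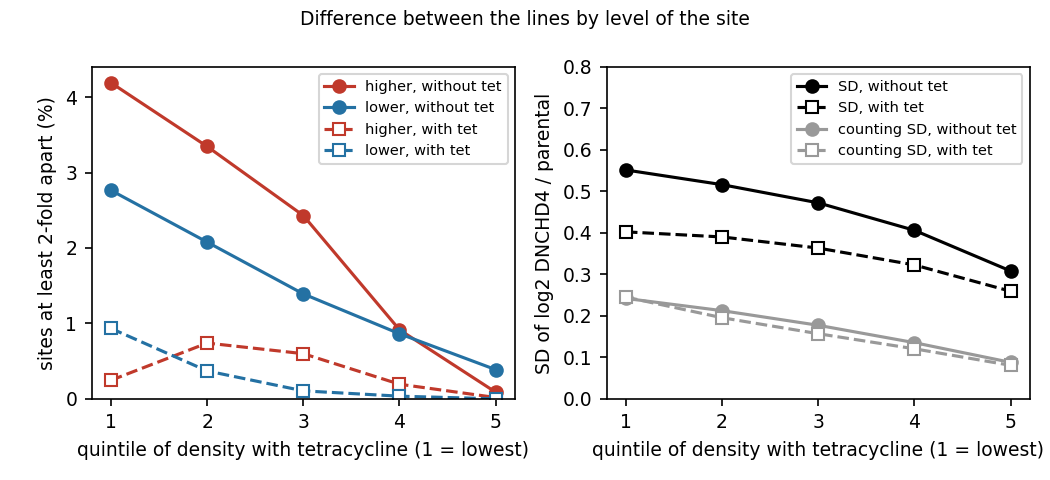
The left panel gives the percent of sites at least 2-fold apart and the right panel the SD of the log2 ratio between the lines, by quintile of density with tetracycline, with filled symbols without and open symbols with tetracycline. Called shares without tetracycline go from 4.19% to 0.0880% for higher and from 2.76% to 0.387% for lower sites, and grey lines give the SD from counting alone.

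Lines with another dominant-negative remodeler were measured independently of the call. Brg1 drives SWI/SNF complexes, which evict and slide nucleosomes, and Snf2h drives ISWI complexes, which space them. Among lower sites listed in both parental and DNCHD4 libraries, 190 were listed in both DNBrg1 libraries, and 31 of them (16.3%) were at least 2-fold lower without than with tetracycline there. The share was 7.23% over the sites of both lists and 6.94% over all DNBrg1 sites. In DNSnf2h cells 29 of 198 (14.6%) were lower, against 6.54% over the sites of both lists and 6.37% over all sites of that line. Of the 1196 lower sites of the parental list only, 63 were listed in both DNBrg1 and 75 in both DNSnf2h libraries. There 1 (1.59%) and 3 (4.00%) were 2-fold lower, with medians of -0.01 and 0.01. A weak site that falls can leave a list and is then not counted, so these shares cannot show a different behaviour. Over all lower sites the shares were 12.6% of 253 and 11.7% of 273. For the lower sites of both lists, the median log2 change was -0.18 in DNBrg1 and -0.30 in DNSnf2h cells, against 0.01 and 0.01 for all sites of both lists. The higher sites had medians of -0.08 over 374 sites in DNBrg1 and -0.07 over 139 in DNSnf2h cells. Of these, 14 (3.74%) and 0 were at least 2-fold higher without tetracycline, against 3.12% and 2.70% over the sites of both lists (2.82% and 2.54% over all sites of each line).

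Of the 33110 sites of both lists, DNBrg1 cells listed 73.7% with and 71.8% without tetracycline, and DNSnf2h cells 57.1% and 57.7%. For the 855 higher sites the shares were 58.7% and 55.9% in DNBrg1, and 31.1% and 27.3% in DNSnf2h cells. For the 616 lower sites they were 46.8% and 42.7%, and 52.4% and 43.8%. The higher sites thus had their smallest shares in DNSnf2h cells, and the lower sites had lower shares than the higher sites in DNBrg1 cells. Weak sites fall below a threshold more easily, and the part of that in these shares was not tested. Of the 1302 DNCHD4-only higher sites, 688 (52.8%) were in none of the other 7 libraries and 939 (72.1%) in neither other line. Over all 44675 DNCHD4-only sites the shares were larger, 71.5% and 83.2%.

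Higher sites lay closer together than lower ones. Another higher site was within 50 kb of 33.5% of the higher sites, against 15.5% of all sites with a higher site that near. For lower sites the shares were 18.8% and 12.2%. Of the 946 windows of 1 Mb with a higher site, 98 held 5 or more, with 31.7% of all higher sites; of the 1061 with a lower site, 23 held 5 or more, with 7.78%. The fullest windows were adjacent, on chromosome 10 from 79 to 80 Mb with 24 higher of 109 sites and from 80 to 81 Mb with 30 of 117. Only 2 of the called sites in each were listed in both libraries, and the sites that all 4 libraries listed there had median log2 ratios of 0.02 and -0.05, so the windows stood out by sites that the parental list did not hold. The fullest lower window was on chromosome 8 from 19 to 20 Mb, with 15 lower and 3 higher of 65 sites. Its median log2 ratio over 26 sites was -0.47 without and -0.05 with tetracycline. At those 26 sites the median log2 change, without over with tetracycline, was 0.08 in DNCHD4 and 0.58 in parental cells. The shift there thus went with a rise in the parental library, not a fall in DNCHD4 cells. By chromosome, higher sites made up 1.39% (X) to 3.79% (10) of sites and lower sites 1.62% (X) to 3.11% (6). Over 255 windows of 10 Mb, the median log2 ratio passed 0.3 in either direction in 3 without and 0 with tetracycline. The widest departures were -0.41 (20 sites) and 0.31 (34 sites) without, and -0.17 (29 sites) and 0.21 (39 sites) with tetracycline. A window needed at least 20 sites listed in all 4 libraries, so these extremes rest on few sites.

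Single sites are given by the rule stated under the processing, with exact 95% binomial intervals on the tag ratio that cover counting error only. The site on chromosome 6 from 119278718 to 119279855 had a density of 132 in DNCHD4 and 12.9 in parental cells without tetracycline, and of 17.5 and 14.3 with it. It was listed in neither the DNBrg1 nor the DNSnf2h libraries. The DNCHD4 library without tetracycline stood alone, 7.86-fold above the parental one (interval 5.89 to 10.7), while the lines were 1.20-fold apart with tetracycline (0.837 to 1.74).

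On chromosome 4 from 137300238 to 137301047 the densities were 79.9 in DNCHD4 and 13.6 in parental cells without tetracycline, and 29.9 and 43.1 with it. Both lines moved here, and the difference was 4.47-fold (3.35 to 6.08). On chromosome 7 from 31118277 to 31119049 they were 96.0 and 20.9 without, and 15.6 and 25.4 with tetracycline, a 3.52-fold difference (2.77 to 4.50). The 2 parental libraries were 1.08-fold apart at this site after centring, and those of DNCHD4 cells 6.03-fold. On chromosome 19 from 56726356 to 56727291 the densities were 52.7 and 11.1 without, and 12.7 and 25.4 with tetracycline. DNCHD4 cells were 3.64-fold higher without (2.63 to 5.14) and 2.05-fold lower with tetracycline (1.47 to 2.86).

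Among lower sites, the one on chromosome 1 from 71809984 to 71810693 had the greatest depth. DNCHD4 cells were at 13.9 without and 63.0 with tetracycline, parental cells at 47.9 and 49.3. After centring, the parental libraries were 1.28-fold and the DNCHD4 libraries 4.63-fold apart, and the difference between the lines without tetracycline was 4.51-fold (3.41 to 6.01). As deposited, without centring, the site was also weaker without tetracycline in the other lines, at 39.3 against 137 in DNBrg1 and 12.5 against 28.8 in DNSnf2h cells. The median hotspot density of those lists was lower too, at 20.7 against 38.1 and 11.3 against 14.6.

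The lower site on chromosome X from 96736996 to 96737835 was at 7.83 without and 25.8 with tetracycline in DNCHD4 cells, and at 21.4 and 15.2 in parental cells, 3.57-fold apart without it (2.42 to 5.34). The one on chromosome 9 from 48263739 to 48264524 was at 7.05 and 31.3 in DNCHD4, and at 14.7 and 13.6 in parental cells, 2.72-fold lower without (1.76 to 4.26) and 2.24-fold higher with tetracycline. A second site on chromosome 1, from 37083522 to 37084261, was at 8.03 and 28.6 in DNCHD4, and at 16.5 and 13.6 in parental cells, 2.69-fold lower (1.79 to 4.08) and 2.05-fold higher (1.46 to 2.93). At all 4 lower sites the DNCHD4 library without tetracycline was the lowest of the 4. With both lists cut at the common density, the log2 bounds of the last 2 were -0.58 and -0.74, short of 2-fold.

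The higher sites with the largest bounds, after the filters of the rule under the processing, were weighed against the parental list around them. They were listed in DNCHD4 cells without tetracycline and in none of the other 7 libraries. The site on chromosome 6 from 137095292 to 137096097 had a density of 115, at least 8.77-fold above the lowest parental density. The lowest of the 5 parental hotspots within 50 kb gave an 8.15-fold bound. On chromosome 3 from 54218415 to 54219421 the density was 94.6 and both bounds were 7.21-fold. On chromosome 10 from 80927871 to 80928581 it was 101.6, with bounds of 7.74-fold and, locally, 3.28-fold. On chromosome 12 from 3236713 to 3238810 it was 95.8, but the only parental hotspot within 50 kb had a density of 126, so no 2-fold difference is shown there.

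The named sites that DNCHD4 cells did not list had lower densities, as deposited. On chromosome 7 from 152503394 to 152503933 parental cells had a density of 37.6 without and 67.3 with tetracycline and DNCHD4 cells 65.7 with tetracycline, a centred log2 ratio of -0.07. DNCHD4 cells did not list it without tetracycline, which bounds the difference at 9.65-fold, or 2.67-fold by the lowest of 8 DNCHD4 hotspots within 50 kb. On chromosome 8 the sites from 19938440 to 19939019 and from 19918306 to 19918642 were at 43.8 and 35.3 in parental cells without tetracycline. DNCHD4 cells listed them only with tetracycline, at 31.7 and 27.6, and parental cells only without. These 2 sites lie in the window with 15 lower sites, with 20 and 19 parental hotspots within 50 kb, and their local bounds were 5.41-fold and 6.20-fold.

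A few sites differed in both states. On chromosome 16 from 6716101 to 6716835 DNCHD4 cells were at 14.3 without and 31.0 with tetracycline and parental cells at 40.4 and 82.5, so DNCHD4 cells were 3.70-fold (2.79 to 4.95) and 2.73-fold (2.25 to 3.33) lower. On chromosome 13 from 28849410 to 28850438 they were 2.96-fold and 2.13-fold lower, with densities of 11.2 against 25.2 and 21.3 against 44.3. On chromosome 2 from 179955638 to 179956377 DNCHD4 cells were at 70.1 and 59.4 and parental cells at 19.1 and 28.2, 2.81-fold and 2.05-fold higher. On chromosome 4 from 154655081 to 154656348 they were 2.43-fold and 2.05-fold higher, at 41.7 against 13.1 and 48.8 against 23.3. At these 4 the 2-fold difference was there with the protein repressed.

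**Figure D5:**
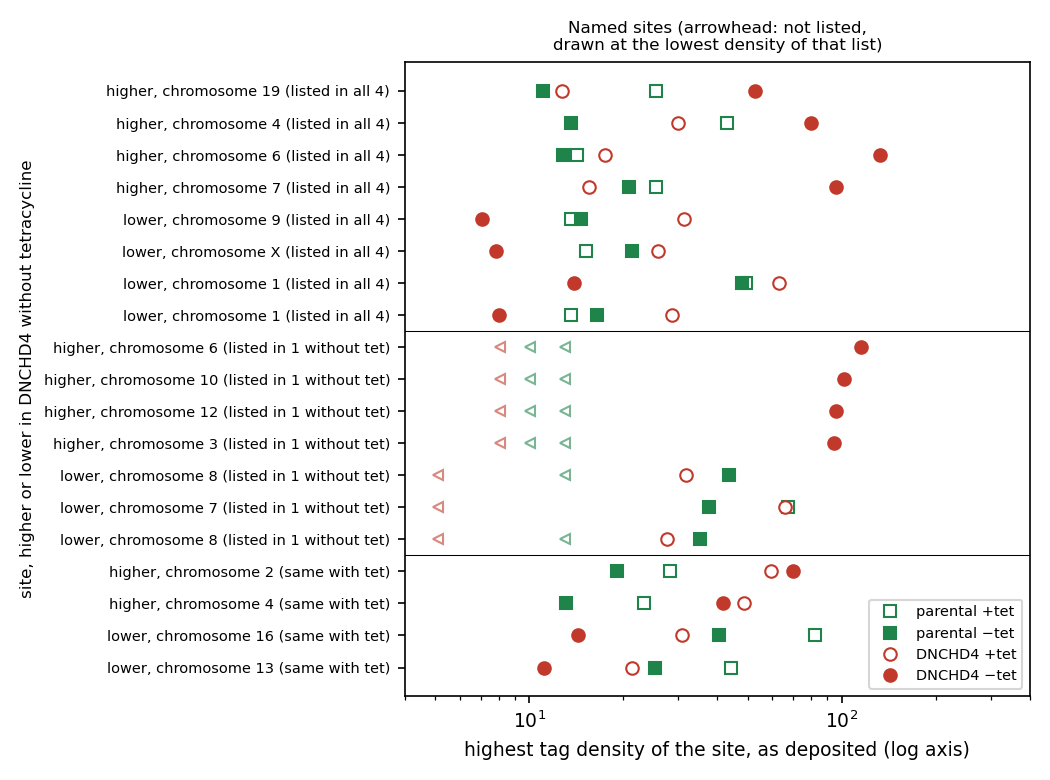
Highest tag density, as deposited and on a log axis, of 19 sites named in the text in the 4 libraries of both lines, with squares for parental and circles for DNCHD4 cells, and filled symbols for cells without tetracycline; arrowheads mark a library that did not list the site, at its lowest density. At the top 8 sites the filled circle is the highest or the lowest of the 4 symbols, and at the bottom 4 the lines lie apart in the same direction in both states.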

How the data were processed

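DNase-seq hotspot lists of 8 mouse libraries were used, grouped by the submitters' labels with 1 library per group. The submitters' processing notes name CASAVA 1.6 and build mm9. The sources used here do not give the hotspot caller or the target to which densities were scaled. Per the file headers, the values the authors deposited for a hotspot are the maximum and average density of tags, a signal. A z-score, which is a score, and a p-value were also deposited by the authors and not used for calls. Densities were whole multiples of 1 tag within 0.05 tags, which gave tag counts for exact binomial 95% intervals. Total depth is unknown.

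Hotspots overlapping by 1 bp were merged, each site took its highest density per list, shared sites were centred on a median ratio of 1, and sites were called at 2-fold. A site in 1 list was compared with the threshold of the other. Sites named are outside windows of 100 kb, on a fixed grid, with 20 or more hotspots of a list. They are the 4 higher and 4 lower ones listed in all 4 libraries with the largest difference of log2 ratios between tetracycline states, the 4 and 4 with the largest bounds and no gap in the other list's numbering there, and the 2 and 2 with the largest ratio of the same direction in both states. The first and the last group were taken from sites merged over 4 lists, a change made after values were seen. Of the lower sites with a bound, 1 is given only in the closing section. Sites, lists and rules were chosen with earlier results of these data known. Python 3.11.15 was used with scipy 1.17.1, numpy 2.4.6, matplotlib 3.10.9 and pandas 2.3.3. The calling step was run on simulated tags with known changes, planted at sites of both lists well above the parental threshold. Those tags varied by counting error only. The run therefore says nothing on weak sites, on sites in 1 list or on variation beyond counting.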

Additional observations from a re-analysis of the deposited data

Results flagged for a closer look

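Among the named sites, 3 turned direction at 2-fold between tetracycline states, with sites merged over 4 lists. On chromosome 19 from 56726356 the log2 ratio of DNCHD4 to parental density was 1.86 without and -1.04 with tetracycline. On chromosome 9 from 48263739 it was -1.45 and 1.16, and on chromosome 1 from 37083522 it was -1.43 and 1.03. The difference between the states was not tested, since each group has 1 library, and the sites were chosen for it. Over all called sites merged this way, 20 higher sites were at least 2-fold lower and 11 lower sites at least 2-fold higher with tetracycline, and of these 3 and 3 were listed in all 4 libraries.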

How the results depend on the processing

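Over 13 alternatives the share of called sites that were higher ran from 36.7% to 94.4%. Higher sites outnumbered lower ones in 11 and not in 2, a reciprocal overlap of 50% and a 3-fold threshold. Counts are given as higher and lower sites, then those without a 2-fold difference of the same direction with tetracycline. Last come those that moved 2-fold in DNCHD4 cells, including bounds that pass by construction. The main counts were 2157 and 1812, 2139 and 1792, 1498 and 931. With densities as deposited they were 6697 and 1200, 6623 and 1187, and 3493 higher sites moved. With a reciprocal overlap of 50%, lower sites numbered 3646, 3596 and 2628, since hotspots that overlap less no longer share a site. With a common threshold lower sites numbered 378, 375 and 193, and 83.5% of called sites were higher. With sites listed in both libraries only, the counts were 855 and 616, 842 and 610, 501 and 291. With the lowest density within 50 kb as bound they were 1311 and 857, 1297 and 849, 893 and 414. At 1.5-fold they were 7205 and 4532, 7137 and 4495, 4939 and 2526, and at 3-fold 386 and 667, 380 and 658, 292 and 282. Mean density gave 33311 higher sites, 27569 and 24055, because the lists have no threshold on mean density and the bound does not hold. Mean density at sites listed in both libraries only, added after the data were seen, gave 1087 and 778, 891 and 759, 576 and 378. The sites without a same-direction difference numbered 916 and 812 when both libraries with tetracycline had to list them, and 666 and 682 when the log2 ratios had to differ by at least 1. Merging over 4 lists, leaving out dense clusters, intervals without 1 and leaving out missing numbers kept all of these counts within 1.5 times. The intervals could not change a count, since every 2-fold call at these tag counts already left out 1. Where no construction is named, the cause was not tested.

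Under the 6 alternatives that can change a site's ratio, 4 of 156 values of named sites turned direction and 16 moved beyond their interval or under 2-fold. Merging over 4 lists accounted for 7 of these 20, among 26 sites. The site on chromosome 12 from 3236713 turned to a log2 ratio of -0.78 with the local bound. Merging over 4 lists turned those on chromosome 1 from 193961670 to -0.27, on chromosome 7 from 117774803 to 0.28 and on chromosome 4 from 70196644 to 0.24, since a stronger neighbour joins each. Likewise it left those on chromosome 9 from 88167975 at -0.25, chromosome 19 from 44461508 at -0.26, chromosome 15 from 99329068 at 0.27 and chromosome 8 from 74029784 at -0.87, so these are not described. Called sites of both lists were weak with tetracycline, at DNCHD4 medians of 23.6 (higher) and 25.9 (lower) against 40.6 for uncalled sites. Without tetracycline the higher sites were not weak in DNCHD4 cells, at 49.5 against 36.2. The lists' thresholds limit what can be said below a density of 13.1. No paired analysis was possible because each group has 1 library and the numbers in the titles follow the tetracycline state.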
